A study of Mus musculus with 121 samples.

Results

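CTCF binding was compared between 2 peak lists of YY1-AID cells, 1 from untreated cells and 1 from cells given auxin for 4 h. An untreated CTCF peak that overlapped an auxin CTCF peak by at least 1 bp was called kept, and the other untreated peaks were called lost. An auxin peak without an untreated counterpart was called auxin-only. Both lists together hold 68778 CTCF peaks, each counted once. The 19 peak lists of the series hold 406319 entries, where a peak shared between lists is counted in each. Of these 68778 peaks 54855 were kept, 4230 were lost and 9693 were auxin-only.

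The cells were G1E-ER4, mouse erythroid progenitors derived from embryonic stem cells that lack functional GATA1 and carry a hormone-activated GATA1. The YY1-AID subline has YY1 fused to a degron, so that auxin sends the YY1 protein for degradation, and the untreated controls have the same fusion. Whether the subline is 1 clone is not given. CTCF and the cohesin subunit RAD21 were mapped by ChIP-seq in asynchronous cultures of this subline, with 2 libraries per factor and treatment. The same was done for YY1 (3 libraries per treatment), YY1 with a second antibody (2), the cofactor LDB1 (2) and the histone mark H3K27ac (2). Labels of these treated libraries give 4 h of auxin, except those of the second YY1 antibody, which give no time. RNA came from the same subline, untreated and after 4 h of auxin for TT-seq (newly made RNA, 3 libraries each) and after 0, 4, 24 and 48 h of auxin for RNA-seq (3 libraries each). Chromatin contacts came from Micro-C of this subline, untreated and with auxin, in asynchronous cells (5 libraries per treatment) and in mid-G1 cells (4 per treatment). The labels of the Micro-C libraries name auxin without a time. The mid-G1 cells were synchronized with nocodazole for 7 h and sorted. Loops, domains and boundaries of asynchronous and of mid-G1 cells are deposited as lists merged over both treatments. Replicates are numbered but not described as separate cultures, so the spread between them may be technical. Per-library totals ranged from 30.2 to 53.5 M gene counts (M, a factor of 1e6) in TT-seq and from 25.1 to 26.2 M in RNA-seq. Erythroid identity was visible in the RNA-seq, where 10 of 11 erythroid markers exceeded 1 log2 CPM in every library and the other one, Hbb-b1, was not listed under that symbol. In TT-seq 8 of 11 did, with Hbb-b1 and Hba-a1 at 0 counts in every library and Alas2 at 0.87 to 1.43 log2 CPM. Of 8 markers of other cell types all stayed under 0 log2 CPM in every TT-seq library and 7 in every RNA-seq library, where Nanog reached 0.06.

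CTCF is a zinc finger protein that binds a long DNA motif and acts as an insulator. The ring-shaped cohesin complex, of which RAD21 is a subunit, extrudes chromatin loops and is held up at CTCF, so sites that bind both often form loop anchors and domain boundaries. YY1 is a zinc finger factor found mainly at active promoters and enhancers, and it has been linked to contacts between them.

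Most CTCF peaks of untreated cells were also listed after YY1 depletion, and those that came or went were mostly peaks without cohesin. Of 59085 untreated peaks 7.16% were lost (Wilson 95% interval 6.95 to 7.37), and of 64548 auxin peaks 15.0% were auxin-only (14.7 to 15.3). The auxin-only peaks thus outnumbered the lost ones. The start and end of each of the 54855 kept peaks are the same before and after auxin, and all but 5 peaks of either list are 400 bp wide. How the lists came to share these coordinates is not given. They may be parts of a common set of intervals, so a kept peak need not have been called separately in each condition. With 1 list per condition there is no test over samples, and every interval on a share of peaks covers counting error only. The lists hold no peak heights, so a kept peak may have changed in height. Lost and auxin-only mean absence from 1 list under a threshold that is not given, so binding itself may have changed little there. No second CTCF list of untreated cells shows how many peaks would differ without auxin, and the depth behind the lists is unknown.

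Loss and gain of CTCF peaks were spread over the genome. The share lost ran from 6.35% to 8.61% over the 19 autosomes. On chromosome X 67 of 1373 peaks were lost (4.88%, 3.86 to 6.15), the lowest share of any chromosome. The auxin-only share ran from 13.8% to 16.4% over the autosomes and was 15.1% (13.4 to 17.0) on chromosome X, within the autosomal range. Lost and kept peaks lay equally far from new ones: the nearest auxin-only peak was a median 44.5 kb from either, and 2.29% of lost and 2.09% of kept peaks had one within 1 kb. The nearest peak of the far larger kept class was a median 6.65 kb from lost and 6.51 kb from auxin-only peaks.

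**Figure D1:**
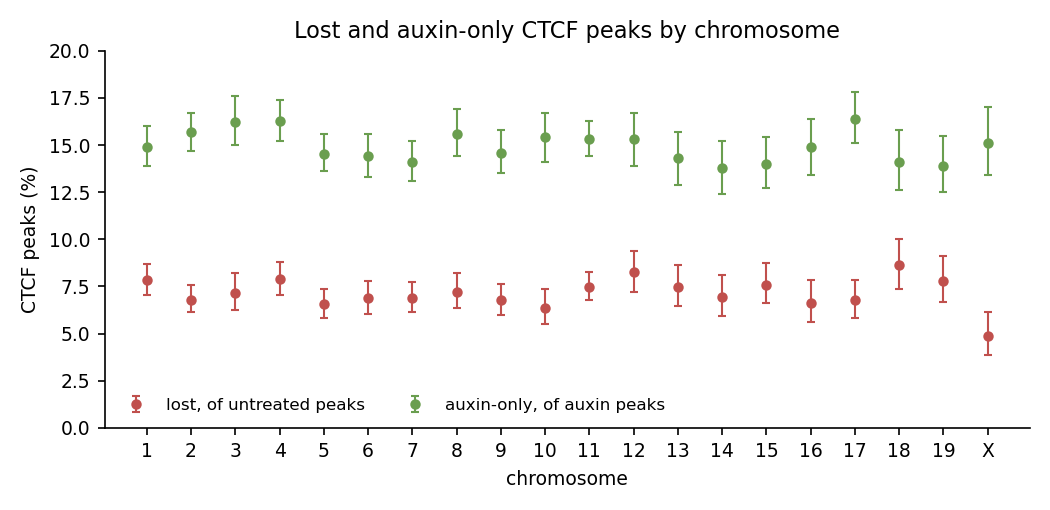
Share of untreated CTCF peaks lost and share of auxin CTCF peaks that were auxin-only (vertical axis, percent) on each chromosome (horizontal axis), with Wilson 95% intervals as bars. The lost share is lowest on chromosome X at 4.88%, and the auxin-only share lies between 13.8% and 16.4% on every autosome.

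The genome was also cut into windows of 1 Mb on a fixed grid in mm9, of which 1550 held a lost and 2001 an auxin-only peak. The most lost peaks, 12 each, lay in chr1:36000001-37000000 and chr4:132000001-133000000, and 11 lay in chr2:156000001-157000000. The chr4 window also had the most auxin-only peaks (27), beside 87 kept ones, 54 RAD21 peaks before and 73 after auxin, and 64 YY1 peaks before and 6 after. The windows chr7:134000001-135000000 and chr17:35000001-36000000 followed with 26 auxin-only peaks each. These windows were dense in CTCF, with 71 to 115 kept peaks each. The share lost was 14.5% in the chr1, 12.1% in the chr4 and 12.9% in the chr2 window, above the 7.16% of all untreated peaks. The auxin-only share was 23.7% in the chr4, 20.2% in the chr7 and 18.4% in the chr17 window, above the 15.0% of all auxin peaks. The windows were picked for their counts of lost or auxin-only peaks, so these shares are a description. Lost peaks occurred singly in 3638 of 3923 runs of neighbouring peaks, and the longest run of lost peaks was 4, at chr19:48025760-48219019. Auxin-only peaks were single in 6758 of 8091 runs, and their longest run was 6, at chr17:19170102-19779571. Of those 6 peaks 3 had RAD21 before and 4 after auxin, none had YY1 before auxin and 1 lay in a loop anchor. Whether these runs differ from what overall shares of 7.16% lost and 15.0% auxin-only would give was not tested.

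Kept peaks differed from the other classes in cohesin. RAD21 was present before auxin at 56.5% of kept peaks (56.1 to 56.9) but at 10.9% of lost (10.0 to 11.9) and 11.0% of auxin-only peaks (10.4 to 11.7). Read the other way, 98.5% of CTCF peaks with RAD21 were kept (98.4 to 98.7), against 86.4% of those without it (86.0 to 86.8). Auxin-only peaks made up 3.33% of the auxin CTCF peaks at RAD21 sites of untreated cells and 26.5% of the others. Where RAD21 lay at a CTCF peak, it was centred more closely on kept peaks: the median distance between the 2 midpoints was 27 bp at kept, 41 bp at lost and 41.5 bp at auxin-only peaks before auxin. The midpoints lay within 50 bp of each other at 92.8% of kept, 58.7% of lost and 59.4% of auxin-only peaks that had RAD21.

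**Figure D2:**
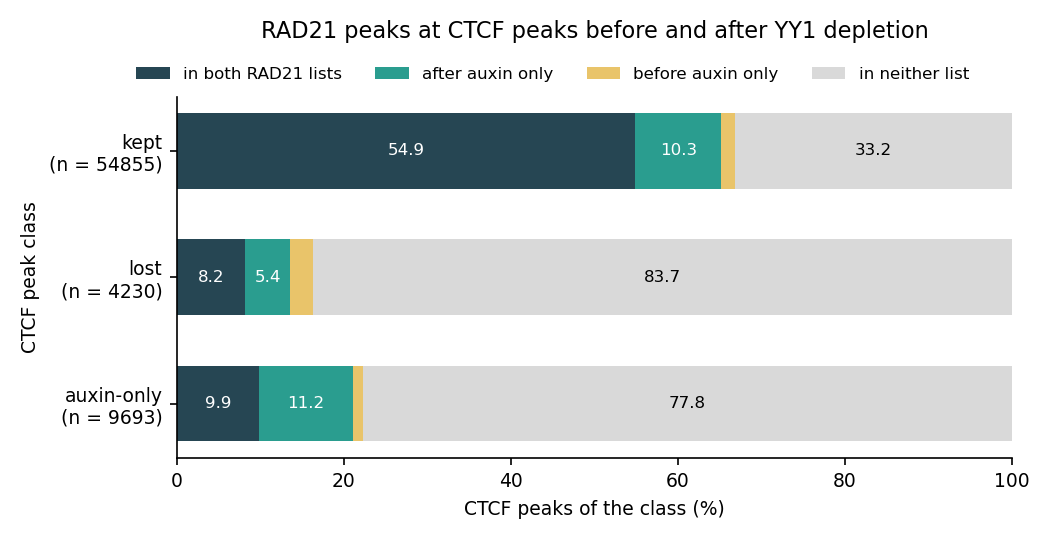
Share of kept, lost and auxin-only CTCF peaks (rows) that overlap a RAD21 peak in both RAD21 lists, in 1 of them or in neither (horizontal axis, percent of the class; bar segments sum to 100). RAD21 is in both lists at 54.9% of kept peaks and in neither list at 83.7% of lost and 77.8% of auxin-only peaks.

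Many RAD21 peaks were still listed after auxin where the CTCF peak was not, which does not show that CTCF had left. At the 462 lost CTCF peaks that had RAD21 before auxin, 75.1% still had a RAD21 peak after it (71.0 to 78.8), compared with 97.2% at kept peaks (97.0 to 97.3). Of the 1068 auxin-only CTCF peaks that lay on RAD21 of untreated cells, 89.6% also had it after auxin (87.6 to 91.3). In each class more CTCF peaks gained a RAD21 peak than lost one. Among peaks without RAD21 before auxin, 23.7% of kept (23.2 to 24.3), 12.6% of auxin-only (11.9 to 13.3) and 6.05% of lost CTCF peaks (5.33 to 6.86) had it afterwards. At kept CTCF peaks 5667 gained and 880 lost a RAD21 peak. The RAD21 list itself held 39745 peaks before and 50028 after auxin, and the part of this difference in the gains was not tested.

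A RAD21 peak was present only after auxin at 10.3% of all kept (10.1 to 10.6), 11.2% of all auxin-only (10.6 to 11.8) and 5.39% of all lost peaks (4.75 to 6.11). Of 13229 RAD21 peaks found only after auxin, 42.9% overlapped a kept CTCF peak (42.0 to 43.7), 8.22% an auxin-only one (7.76 to 8.7) and 1.72% a lost one (1.52 to 1.96), in classes of 54855, 9693 and 4230 CTCF peaks. Of 36799 RAD21 peaks in both lists 81.8% overlapped a kept CTCF peak, and of 2946 RAD21 peaks lost after auxin 29.9% did. Thus both sets of RAD21 peaks found in 1 list only were poorer in kept CTCF than those in both lists. Gain of RAD21 at kept CTCF without prior RAD21 was somewhat more common where YY1 had been bound. It reached 29.2% where the YY1 peak went (26.7 to 31.9), 38.9% where it stayed (74 of 190) and 23.3% where there was none (22.8 to 23.9). With H3K27ac, a mark of active promoters and enhancers, the shares were 33.0% with YY1 and 25.7% without. Without H3K27ac they were 26.6% and 23.2%, and their intervals overlap (23.0 to 30.6 and 22.6 to 23.7). Loop anchors differed little in gain (24.0% against 23.7% elsewhere), but kept CTCF peaks in them lost RAD21 less often (1.18%, 1.0 to 1.38, against 3.96%, 3.69 to 4.26).

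With the first YY1 antibody, YY1 was less common at lost than at kept CTCF peaks, by 2.66 points (1.79 to 3.47). It lay at 7.64% of lost CTCF peaks before auxin (6.87 to 8.48), at 10.3% of kept (10.0 to 10.6) and at 9.91% of auxin-only peaks (9.34 to 10.5). With the second antibody, lost and kept peaks differed by 0.13 points, an interval that includes 0 (−0.46 to 0.64). That antibody gave 3.17% of lost, 3.29% of kept and 5.47% of auxin-only peaks (5.03 to 5.94). Where the YY1 peak disappeared, 5080 of 5365 CTCF peaks were kept (94.7%, 94.1 to 95.3). Where it stayed, 569 of 607 were kept (93.7%, 91.5 to 95.4). The interval of the first is inside that of the second, and both cover counting error only. With 1 list per condition, a difference between vanished and retained YY1 was not tested.

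The kept share at YY1 sites depended on whether RAD21 was taken into account. Over all untreated CTCF peaks the kept share was 1.95 points higher with YY1 than without (94.6% against 92.6%, interval of the difference 1.31 to 2.54). YY1-bound CTCF peaks more often carried RAD21: 4372 of the 5972 with YY1 did, against 27077 of the 53113 without. Among CTCF peaks with RAD21 the kept share was 0.98 points lower with YY1 (97.7% against 98.7%, interval of the fall 0.55 to 1.48). Among CTCF peaks without RAD21 the shares were 86.1% and 86.4%, and the interval of the difference, −2.08 to 1.41, includes 0. With every peak reduced to 200 bp around its midpoint, the difference at RAD21 sites was −0.34 points and its interval also included 0 (−0.87 to 0.07). With the YY1 peaks of the second antibody it was −2.36 points (−3.52 to −1.46).

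At YY1 sites of untreated cells a larger share of auxin CTCF peaks was new, both with and without RAD21. Among auxin CTCF peaks on RAD21, 6.26% were auxin-only with YY1 and 2.85% without, a difference of 3.41 points (2.71 to 4.17). Away from RAD21 the shares were 32.9% and 26.1%, a difference of 6.8 points (4.74 to 8.92). Over all auxin peaks they were 14.5% and 15.1%, and the interval of the difference (−1.41 to 0.38) includes 0. Auxin-only CTCF peaks also kept more of their YY1: 23.9% of those with YY1 before auxin had a YY1 peak after it (21.3 to 26.7), against 10.1% at kept (9.31 to 10.9) and 11.8% at lost CTCF peaks (8.69 to 15.7). YY1 peaks found only after auxin lay at 7 kept and 4 lost CTCF peaks and at 0 auxin-only ones.

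H3K27ac was most common at auxin-only peaks. It lay at 12.4% of kept and 12.5% of lost peaks but at 16.2% of auxin-only peaks (15.5 to 17.0). The mark itself stayed at these places, at 94.2% of kept, 93.5% of lost and 97.1% of auxin-only peaks that had it before auxin. At RAD21 sites the kept share was 96.4% with H3K27ac (95.8 to 96.9) and 98.9% without (98.8 to 99.0). Away from RAD21 these shares were 86.8% and 86.3%, with overlapping intervals (85.5 to 88.0 and 85.9 to 86.7). LDB1, a cofactor that joins erythroid enhancers to promoters, gave a similar picture at RAD21 sites, where 93.4% of CTCF peaks with it were kept (91.6 to 94.8) and 98.7% without. In the few lost CTCF peaks with RAD21 (462) LDB1 was found at 13.2% (10.4 to 16.6) and H3K27ac at 36.6% (32.3 to 41.1), compared with 2.77% and 14.4% of kept peaks with RAD21. Auxin-only peaks on RAD21 resembled the lost ones, with 12.9% and 39.8%.

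The number of other marks did not order the kept share in steps. Of CTCF peaks with none of RAD21, YY1, H3K27ac and LDB1, 86.3% were kept (85.9 to 86.8). With 1 of these 4 it was 97.9% (97.7 to 98.1), and it was 95.9% with 2, 95.3% with 3 and 93.6% with all 4 (90.8 to 95.6). The step from 0 to 1 went with RAD21. Among CTCF peaks without RAD21 the kept share was 86.1% with YY1, 86.8% with H3K27ac and 84.7% with LDB1 (80.9 to 87.8).

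**Figure D3:**
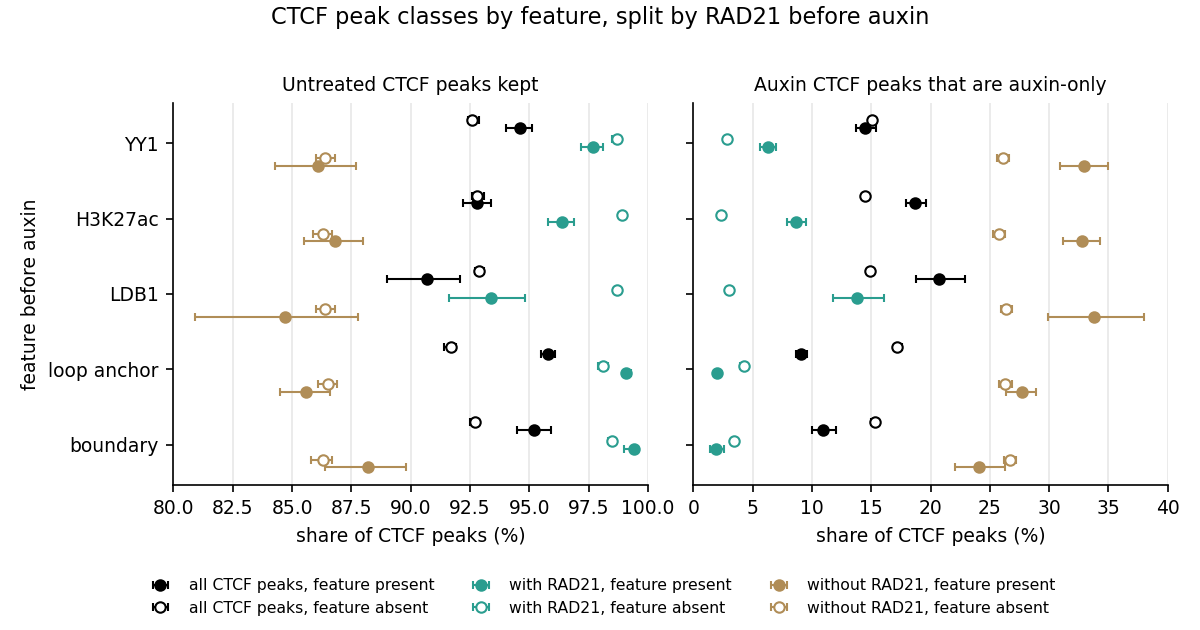
Share of untreated CTCF peaks kept (left) and of auxin CTCF peaks that were auxin-only (right), in percent, where each feature of untreated cells was present (filled) or absent (open), for all peaks and for peaks with and without RAD21. Bars are Wilson 95% intervals; the left axis starts at 80. For YY1 the filled point lies above the open one over all peaks (94.6% against 92.6%) and below it at RAD21 sites (97.7% against 98.7%).

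CTCF peaks at sites where YY1 emerges on the way out of mitosis had kept shares on both sides of the 92.8% of all peaks. These YY1 lists came from the G1E-ER4 MD-mCherry subline, sorted after 7 h of nocodazole and named for the stage at which the peaks emerge. Kept shares were 95.5% for prometaphase (128 of 134 CTCF peaks), 92.2% for ana/telophase (90.5 to 93.6), 94.4% for early G1 (93.1 to 95.4) and 95.9% for mid-G1 (93.4 to 97.5). All 25 CTCF peaks at late G1 sites were kept, an interval of 86.7 to 100.0. Another pair of YY1 lists is titled CTCF-AID, untreated and auxin, while its genotype label reads YY1-AID, so which protein was depleted is unclear. In those libraries 81.1% of YY1 peaks at kept CTCF sites were also in the auxin list (79.5 to 82.6), 91.0% at lost (86.4 to 94.2), 93.9% at auxin-only (91.8 to 95.5) and 83.3% at places without CTCF (82.6 to 83.9).

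**Figure D4:**
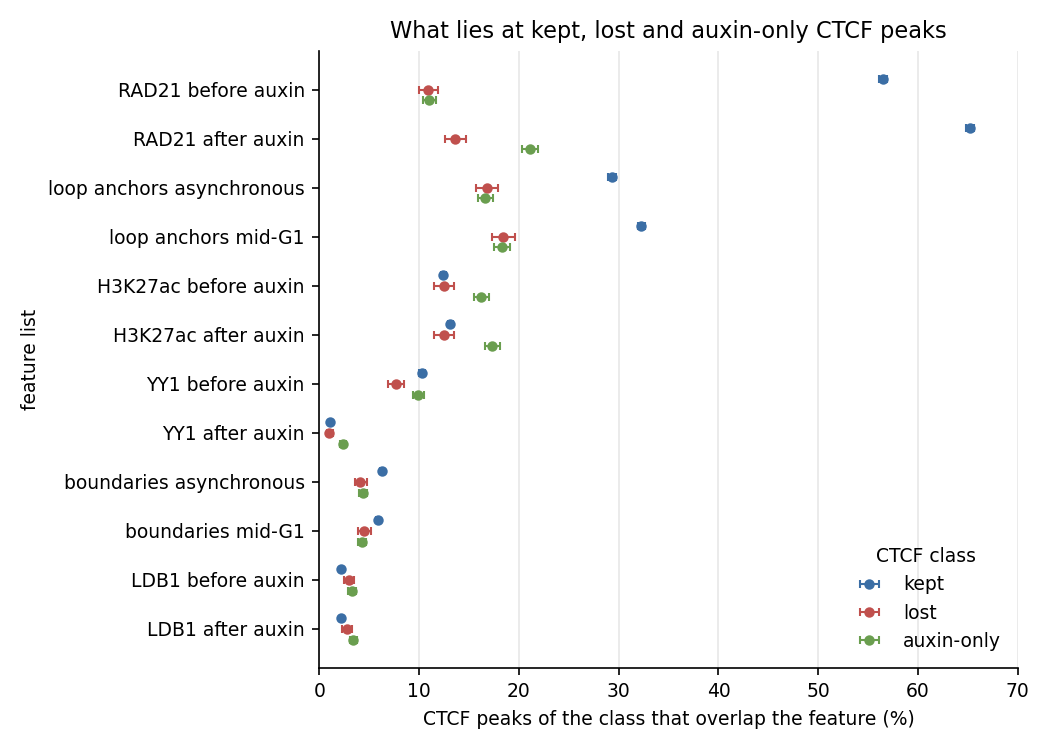
Share of kept, lost and auxin-only CTCF peaks that overlap each list by at least 1 bp (horizontal axis, percent; rows are the lists), with Wilson 95% intervals as bars. Kept peaks stand apart at RAD21 and loop anchors, at 56.5% and 29.3%, while H3K27ac is highest at auxin-only peaks, at 16.2%.

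Most loops of the merged list had a kept CTCF peak at both anchors, where 54855 of all 68778 CTCF peaks were kept. Asynchronous loop anchors held 29.3% of kept (28.9 to 29.7), 16.8% of lost (15.7 to 17.9) and 16.6% of auxin-only peaks (15.9 to 17.4), while the anchors cover 4.89% of the span from the first to the last CTCF peak of each chromosome. Of 12738 loops 62.5% had a kept CTCF peak at both anchors (61.6 to 63.3), 24.4% at 1 anchor and 13.1% at none. A lost peak touched 7.83% of loops (7.37 to 8.31) and an auxin-only peak 16.3% (15.7 to 17.0). A kept peak lay in 71.2% of all 20294 anchors (70.6 to 71.8), in 76.1% of anchors with a lost peak (73.0 to 79.0) and in 71.1% of anchors with an auxin-only one (68.9 to 73.2). CTCF was present at both anchors only before auxin in 1.04% of loops (0.882 to 1.24) and only after auxin in 2.84% (2.57 to 3.14). No loop had lost peaks without a kept peak at both anchors.

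Loops with and without kept CTCF differed in their other factors more than in size. Median sizes were 180 kb with kept CTCF at both anchors, 160 kb with it at 1 and 170 kb with it at none. RAD21 was in both RAD21 lists at both anchors of 89.8% of the first group (89.1 to 90.4), against 18.8% and 4.2% of the others. YY1 lay at both anchors before auxin in 23.2% of loops with kept CTCF at both ends (22.3 to 24.1). It did so in 48.4% of the 215 loops with an anchor that had a lost but no kept peak (41.8 to 55.0), and in 54.8% of the 540 loops with an anchor that had an auxin-only but no kept peak (50.6 to 59.0). It lay at both anchors in 32.5% of loops with kept CTCF at 1 anchor (30.8 to 34.1), in 34.4% of all 997 loops with a lost peak (31.5 to 37.4) and in 40.6% of all 2077 loops with an auxin-only peak (38.5 to 42.7). Loops with kept CTCF at no anchor had YY1 at both anchors in 16.0% (14.3 to 17.8), and those with no CTCF at either anchor in 10.3%. Both shares were below the 23.2% of loops with kept CTCF at both ends, so YY1 did not rise steadily as kept CTCF fell. The highest of these YY1 shares belonged to the loops with an anchor that had a lost or auxin-only but no kept CTCF peak.

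Without RAD21 the 3 classes lay in anchors at similar rates. Of kept peaks with RAD21 40.3% lay in an anchor, and of kept peaks without it 14.9% (14.5 to 15.4). Lost peaks without RAD21 were at 15.9% (14.8 to 17.1) and auxin-only ones at 15.8% (15.0 to 16.6), close to the kept ones. At RAD21 sites a gap between the classes remained, with 23.6% of lost (19.9 to 27.7) and 23.2% of auxin-only peaks in an anchor (20.8 to 25.8). Mid-G1 loops gave the same order, at 32.2%, 18.4% and 18.3% for kept, lost and auxin-only peaks. Kept CTCF lay at both anchors of 64.9% of 14155 mid-G1 loops. CTCF itself was mapped only in asynchronous cells, so its classes were not measured in mid-G1.

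Boundaries, the bins of 10 kb that separate contact domains, also held more kept CTCF. They contained 6.28% of kept (6.08 to 6.49), 4.09% of lost (3.53 to 4.73) and 4.36% of auxin-only peaks (3.98 to 4.79), and cover 2.36% of the same span. Kept peaks lay a median 58.1 kb from the nearest boundary, lost peaks 64.6 kb and auxin-only peaks 66.4 kb. Of 6070 asynchronous boundaries 40.5% had a kept CTCF peak (39.3 to 41.8), 2.82% a lost and 6.64% an auxin-only one, and 55.8% had no CTCF peak in the bin. A lost peak was the only CTCF at 65 boundaries (1.07%), and an auxin-only peak at 154 (2.54%). Boundaries with YY1 before auxin had kept CTCF more often (70.1%, 67.6 to 72.4) than those without (32.0%, 30.6 to 33.3).

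Domain ends labelled for a single treatment held fewer CTCF peaks of each class than those labelled for both. A lost peak lay in 1.55% of bins that ended only domains labelled untreated (0.924 to 2.58). For bins that ended only domains labelled auxin it was 1.56% (0.99 to 2.45). Auxin-only peaks were in 2.32% of the first (1.52 to 3.52) and 3.38% of the second (2.48 to 4.59), with overlapping intervals. Kept peaks lay in 19.9% and 22.2% of them, compared with 49.9% of bins that ended only domains found in both treatments (1226 of 2455), where lost peaks were in 3.75% and auxin-only peaks in 8.84%. With the mid-G1 domains, lost peaks of asynchronous cells were in 1.58% and 1.45% of such single-treatment bins, and auxin-only peaks in 3.4% and 4.83%. When bins that also ended domains of another label were included, asynchronous kept shares were 36.7% (untreated), 35.3% (auxin) and 51.1% (both). Lost peaks then lay in 2.47%, 2.3% and 3.53% of bins, and auxin-only peaks in 4.74%, 5.54% and 8.64%.

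Ctcf RNA did not pass the test at 4 h in either assay when the replicate number was left out of the fit. In TT-seq it stood at 7.53, 7.55 and 7.55 log2 CPM in untreated and 7.64, 7.74 and 7.59 in auxin libraries, so the groups did not overlap but were close. The log2 fold change was 0.11 ± 0.07 (standard error, 3 libraries against 3) and did not pass edgeR's quasi-likelihood test (adjusted p = 0.434). Libraries of the same number deviate together in TT-seq, and with the replicate number as a block the same change passed (0.11 ± 0.04, adjusted p = 0.0108). In RNA-seq Ctcf was at 7.87, 7.76 and 7.84 log2 CPM at 0 h and 7.97, 7.92 and 7.86 at 4 h, which overlap (0.10 ± 0.08, edgeR adjusted p = 0.49). At 24 h it was at 8.11, 7.91 and 7.80, and at 48 h at 8.01, 8.07 and 7.88.

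A list of 20 genes covered CTCF, its paralog, cohesin, its loading and release factors, and zinc finger proteins that share sites with CTCF. Few passed the test at 4 h without the replicate block. In TT-seq 19 were tested, and 1 rose and 1 fell, beside 2.11% of all 11218 genes called higher and 7.09% called lower. Their median log2 fold change was −0.04, against 0.02 over all genes tested. With the replicate block 12 of the 19 passed (4 higher, 8 lower), while 47.9% of all genes did. In RNA-seq 1 of 20 passed, as lower, beside 3.14% of 15157 genes called higher and 4.14% called lower, and the median was −0.03 against 0.01. Ctcfl, the germline paralog of CTCF, had no TT-seq counts and at most 15 RNA-seq counts in any library.

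Newly made Rad21 RNA, for the cohesin subunit mapped above, was the gene that rose. It stood at 7.58, 7.53 and 7.51 log2 CPM in untreated and 7.90, 7.89 and 7.89 in auxin TT-seq libraries, groups without overlap (0.34 ± 0.07, 1.27-fold, edgeR adjusted p = 0.0249). This call was lost when any single library except auxin replicate 2 was left out (edgeR adjusted p from 0.0609 to 0.145), although the fold change stayed between 0.32 and 0.37. In RNA-seq Rad21 was at 8.75, 8.82 and 8.71 log2 CPM at 0 h and 8.89, 8.93 and 8.81 at 4 h, and the change did not pass (0.13 ± 0.05, edgeR adjusted p = 0.162). Its level was 9.09, 9.04 and 9.03 at 24 h and 9.07, 9.10 and 9.05 at 48 h, above every 0 h library. Vezf1, a zinc finger protein found at insulators, fell in both tables. Its TT-seq level went from 5.95, 5.76 and 5.81 log2 CPM to 5.28, 5.12 and 5.24 (−0.63 ± 0.09, edgeR adjusted p = 0.00507). Its RNA-seq level went from 6.88, 6.94 and 6.79 to 6.42, 6.53 and 6.39 (−0.41 ± 0.07, edgeR adjusted p = 0.00531). With the replicate block the TT-seq calls of both genes held (adjusted p = 4.07e-15 for Rad21 and 1.17e-24 for Vezf1). With library sizes from the Drosophila spike-in neither passed (0.29 and −0.69, edgeR adjusted p = 1 for both). That fit called 1 of all 11218 genes tested, and its standard error for Ctcf was 0.8, against 0.07 without the spike-in. It could therefore not decide these calls. At 24 h Vezf1 RNA was at 6.52, 6.29 and 6.43, and at 48 h at 7.00, 7.00 and 6.82, which overlap the 0 h libraries. Yy1 mRNA, whose protein product is the degraded one, stood at 7.41, 7.64 and 7.52 log2 CPM in untreated and 7.65, 7.69 and 7.74 in auxin TT-seq libraries, and did not pass (0.16 ± 0.08, edgeR adjusted p = 0.276; 0.000176 with the replicate block). In RNA-seq it went from 8.07, 8.12 and 7.91 at 0 h to 8.21, 8.26 and 7.92 at 4 h, which overlap (0.11 ± 0.09, edgeR adjusted p = 0.516). It was at 8.02, 7.88 and 7.89 at 24 h and at 8.05, 8.17 and 7.97 at 48 h.

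**Figure D5:**
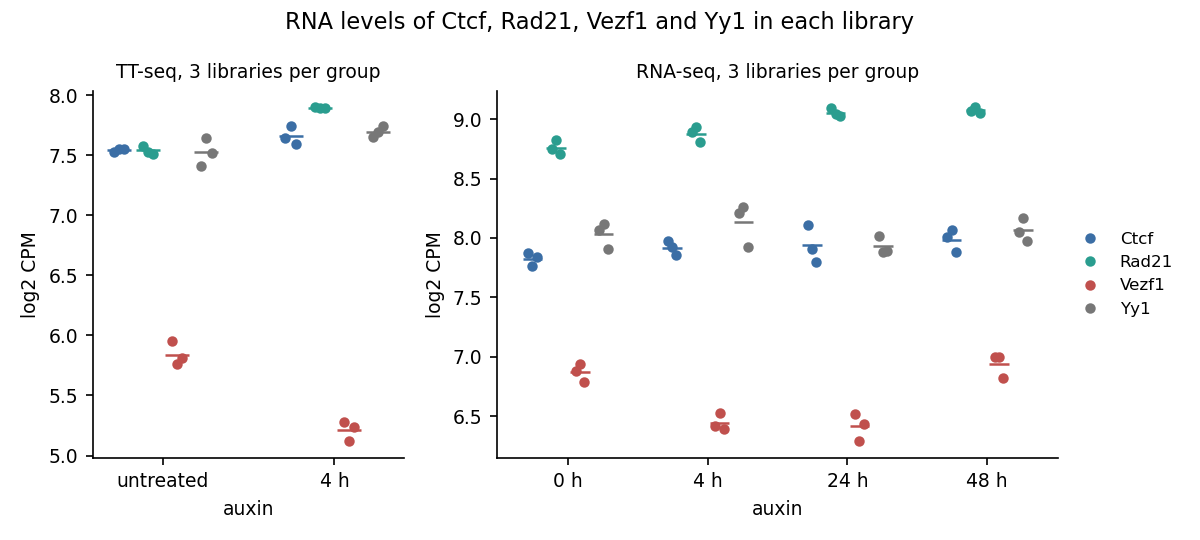
Level of Ctcf, Rad21, Vezf1 and Yy1 RNA (vertical axis, log2 CPM, not per length) in each TT-seq and RNA-seq library (points) by time in auxin (horizontal axis), with group means as bars. Rad21 in TT-seq lies at 7.51 to 7.58 in untreated and 7.89 to 7.90 in auxin libraries, and Vezf1 lies lower at 4 h in both assays.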

How the data were processed

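Peaks, loop anchors, domains and boundaries are deposited as intervals in mm9, per the labels, with 1 CTCF list per condition; per the submitters' processing notes, ChIP-seq used MACS2 2.2.7, deepTools 3.5.1 and Bowtie2. The peak threshold, any pooling of replicates and the loop and domain callers were not given in the sources used here. TT-seq values are counts per gene as the authors deposited them; reads without a gene (17.7% to 22.6% of a library) were left out. RNA-seq values are estimated counts that the authors deposited as whole numbers, with Salmon 0.13.1 named per the submitters' processing notes. A table of untreated lines (6 columns) was not used.

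Overlaps of at least 1 bp were counted in Python 3.11.15 with NumPy 2.4.6, after a check against bedtools 2.31.1 on simulated intervals, and shares have Wilson 95% intervals from SciPy 1.17.1, differences Newcombe's. Counts were tested with edgeR 4.0.16 (TMM, filterByExpr, quasi-likelihood F-test, Benjamini-Hochberg over all genes tested, threshold 0.05), with 3 TT-seq libraries per group, or all 12 RNA-seq libraries and the contrast of 4 h with 0 h; the fit was checked on simulated counts. Levels are log2 CPM with a prior count of 2. Same-numbered TT-seq libraries deviated together from their group means (r of 0.55, 0.66 and 0.40, other pairs at most −0.09); the labels do not state this pairing. Members, gene lists and alternatives were chosen with earlier results of these data known. Genes named are Ctcf, Rad21, Yy1 and those of the list called at 4 h; regions named are the 3 windows of 1 Mb with most lost and with most auxin-only peaks and the longest run of each. Sequence motifs and genes near peaks are not analysed here, since no mm9 genome was used. Alternatives were other overlap rules, widened anchors, mid-G1 lists, DESeq2 1.42.0, no filter, the replicate block, left-out libraries and spike-in library sizes.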

Additional observations from a re-analysis of the deposited data

How the results depend on the processing

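Leaving out chromosome X gave the same shares kept and auxin-only. An overlap of at least 50% and a minimum width at the median could change no call, since kept peaks have identical coordinates and no peak was narrower. When peaks within 1 kb also counted as kept, 93.9% were kept and 13.2% auxin-only, RAD21 lay at 55.9% of kept peaks, and loop anchors held 12.7% of lost and 13.6% of auxin-only peaks. When each peak was cut to its central 200 bp, RAD21 before auxin lay at 55.7% of kept and 9.69% of lost peaks and RAD21 after auxin at 19.0% of auxin-only peaks, YY1 at 7.2% of kept, 4.54% of lost and 5.98% of auxin-only peaks, and 61.1% of loops had kept CTCF at both anchors. Anchors widened by 10 kb held 49.7% of kept, 41.3% of lost and 39.8% of auxin-only peaks, and 85.2% of loops then had kept CTCF at both ends. Boundaries widened by 10 kb held 17.1%, 12.8% and 12.3%. Mid-G1 lists moved anchors to 32.2%, 18.4% and 18.3%, loops to 64.9% and kept peaks at boundaries to 5.84%. In each of these settings kept peaks had the highest share in anchors and at boundaries. With YY1 they were highest for the first antibody, though by 0.38 points over auxin-only peaks (−0.28 to 1.02), and for the second kept minus auxin-only was −2.17 points. The kept share with YY1 against without it was recomputed under alternatives chosen after seeing the data: over all peaks it was 2.71 points higher with the 200 bp peaks and 0.26 with the second antibody, and at RAD21 sites −0.34 and −2.36 points. With the replicate block the Ctcf change in TT-seq (0.11) passed and 12 list genes were called, against 2. Same-numbered RNA-seq libraries deviated together only weakly (r of 0.10, 0.05 and 0.10, other pairs at most 0). In RNA-seq the block gave 3 list genes against 1, and 0.10 for Ctcf, which did not pass. DESeq2 called 2 list genes in RNA-seq and 3 in TT-seq, where Nipbl was added as lower (adjusted p = 0.0445). Spike-in library sizes called 0 of 19 in TT-seq, with 0 at an unadjusted p under 0.05, and 1 gene of all. Leaving out 1 library gave 1 to 3 list genes in TT-seq and 1 to 2 in RNA-seq, and a Ctcf change of 0.08 to 0.14 and 0.06 to 0.11. The causes of these changes were not tested. Depth is unknown for the peak lists.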
